A study of Mus musculus with 12 samples.

Results

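The transcripts of 10 mouse glycosyltransferases were examined: Gcnt1, Gcnt2, St8sia4, St3gal1, St3gal4, St3gal5, St3gal6, St6gal1, B4galt1 and B4galt5. They are the rows of the deposited table of estimated counts whose Ensembl identifiers carry these symbols, 10 of 55891 rows, and all 10 passed the filter on low counts that left 13525 genes for testing. The members were picked from the sialyltransferase, GCNT and B4GALT families with their levels in these same libraries known. Their differences after a stimulus are therefore a description, given with no p-value, and how many of them the fit over all genes called is stated once beside the share of all genes, with nothing read from it. Differences between genotypes were tested, but the levels known at the pick cover both genotypes, so these p-values are not free of it either.

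RNA was sequenced from cultured mouse macrophages to ask how Ptprz1, which encodes a receptor-type tyrosine phosphatase, bears on their state before and after a stimulus. Marrow cells had been grown into macrophages over 6 days in 10 ng/mL M-CSF, the main macrophage growth factor. There were 6 groups of 2 libraries. KO LPS+IFNγ and WT LPS+IFNγ macrophages had received 100 ng/mL bacterial lipopolysaccharide with 10 ng/mL interferon gamma for 24 h, a mix that drives an inflammatory state. KO IL-4 and WT IL-4 macrophages had received 20 ng/mL interleukin-4 for 24 h, which drives an alternative state. KO control and WT control macrophages had received neither stimulus. The genotype label is PTPRZ_KO for one set of mice, while titles of the WT set begin with B6. A single strain name, that of a targeted Ptprz1 allele, is given for every sample, WT included, and no age, sex or number of animals is given. Nothing says that the 2 libraries of a group are from different animals or cultures. Each p-value therefore reflects only how far these libraries spread, and that spread may be technical.

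Total counts ran from 13665607 to 19555600 per library. Levels are CPM, counts scaled by library size and TMM factors, and 3 counts equal 0.138 to 0.290 CPM. The 8 macrophage markers, Csf1r and Cd68 among them, were detected in every library, with summed levels of 8138 to 20865 CPM. Nos2 reached 4790 to 5782 CPM in LPS+IFNγ libraries and at most 0.164 CPM elsewhere, and Retnla reached 99.8 to 243 CPM in IL-4 libraries and had 0 counts elsewhere. Cxcl9 reached 1100 to 1534 CPM in LPS+IFNγ libraries and at most 0.109 CPM elsewhere. Arg1 was less particular, with 1357 to 1612 CPM in IL-4 libraries, 152 to 564 CPM in LPS+IFNγ libraries and at most 2.39 CPM in control libraries. Ptprz1 itself had 0 counts in 11 of 12 libraries and 7 counts in WT IL-4 library 2, so its RNA cannot check the knockout. Xist was present in every WT library and had 0 counts in every KO library, and the Y-linked gene Ddx3y showed the reverse, so sex and genotype cannot be told apart. The summed level of 8 stromal markers was 273 and 696 CPM in KO LPS+IFNγ libraries 1 and 2, against 45.1 and 177 CPM in WT LPS+IFNγ libraries 1 and 2. It was 336 and 1350 CPM in KO IL-4 libraries, against 51.2 and 201 CPM in WT IL-4 libraries, and 352 and 852 CPM in KO control libraries, against 65.0 and 348 CPM in WT control libraries. Library 2 was higher than library 1 in each of the 6 groups, and the 3 KO libraries numbered 2 had the highest sums. In bulk RNA, fewer cells of a type and less RNA per cell cannot be told apart.

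Glycosyltransferases of the Golgi build the sugar chains of cell-surface proteins and lipids, and sialyltransferases end these chains with sialic acid. The ends decide which lectins, such as selectins, galectins and Siglecs, can bind a leukocyte. GCNT enzymes add branches, B4GALT enzymes add the galactose that carries the cap, and ST3GAL, ST6GAL and ST8SIA enzymes add sialic acid in different linkages.

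Promoter sequences of 3 members are shown: Gcnt1 and St8sia4, whose profiles were nearest each other and which were lower after LPS+IFNγ, and Gcnt2, the member that was highest there relative to control. Each is 250 bases before a transcript start, from RefSeq on GRCm38.p6, printed 5′ to 3′ on the strand of the gene, and only windows that overlap no annotated exon are given. The St8sia4 window is chr1:95667595-95667844, minus strand. Gcnt1 windows 2 and 3 are chr19:17356668-17356917 and chr19:17372845-17373094, minus strand, and Gcnt2 window 2 is chr13:40886508-40886757, plus strand. Capitals mark matches to the motifs searched, on either strand.
St8sia4: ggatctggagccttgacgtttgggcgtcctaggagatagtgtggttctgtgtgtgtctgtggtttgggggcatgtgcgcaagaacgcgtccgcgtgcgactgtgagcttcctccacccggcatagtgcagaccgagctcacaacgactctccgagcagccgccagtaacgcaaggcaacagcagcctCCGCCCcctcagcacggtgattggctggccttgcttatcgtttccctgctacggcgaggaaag
Gcnt1 window 3: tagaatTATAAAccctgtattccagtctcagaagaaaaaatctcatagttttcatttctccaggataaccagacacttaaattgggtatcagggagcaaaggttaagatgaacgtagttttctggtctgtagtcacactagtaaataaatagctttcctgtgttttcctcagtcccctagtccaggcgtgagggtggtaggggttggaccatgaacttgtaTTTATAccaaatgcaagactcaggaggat
Gcnt1 window 2: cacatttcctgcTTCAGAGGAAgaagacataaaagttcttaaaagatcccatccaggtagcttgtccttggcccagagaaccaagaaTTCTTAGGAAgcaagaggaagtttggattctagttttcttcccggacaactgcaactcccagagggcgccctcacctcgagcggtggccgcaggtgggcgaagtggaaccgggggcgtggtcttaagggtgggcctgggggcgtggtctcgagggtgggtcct
Gcnt2 window 2: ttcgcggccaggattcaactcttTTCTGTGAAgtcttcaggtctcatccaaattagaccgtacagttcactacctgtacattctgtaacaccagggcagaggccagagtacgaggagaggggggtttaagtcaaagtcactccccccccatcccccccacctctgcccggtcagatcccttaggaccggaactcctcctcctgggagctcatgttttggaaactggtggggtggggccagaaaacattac

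Motifs were searched on both strands in 16 windows of 9 matched members and in all 32851 mouse windows of the same length. They were GAS (TTCNNNGAA), a STAT6-type site (TTC and GAA with 4 bases between), an ISRE core (GAAA and GAAA with 2 bases between), the κB site, TATAAA and the GC box (GGGCGG). The St8sia4 window held 1 GC box on the minus strand, 63 to 58 bases before the start. Gcnt1 window 3 held TATAAA at 244 to 239 bases before the start, and on the other strand at 29 to 24 bases. Gcnt1 window 2 held 2 STAT6-type matches, at 238 to 229 and 163 to 154 bases. Gcnt2 window 2 held 1 GAS match, at 227 to 219 bases. No match in these 4 windows overlapped another. Over all mouse windows the share with a match was 32.7% for the GC box, 12.4% for TATAAA, 7.02% for GAS, 5.85% for the STAT6-type site, 3.9% for the κB site and 2.98% for the ISRE core. Among the 16 member windows, 7 held a GC box, 2 held GAS, 1 each held TATAAA, the STAT6-type site and the κB site, and 0 held the ISRE core. These matches are letters in a window and were not tied to any value below.

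**Figure D1:**
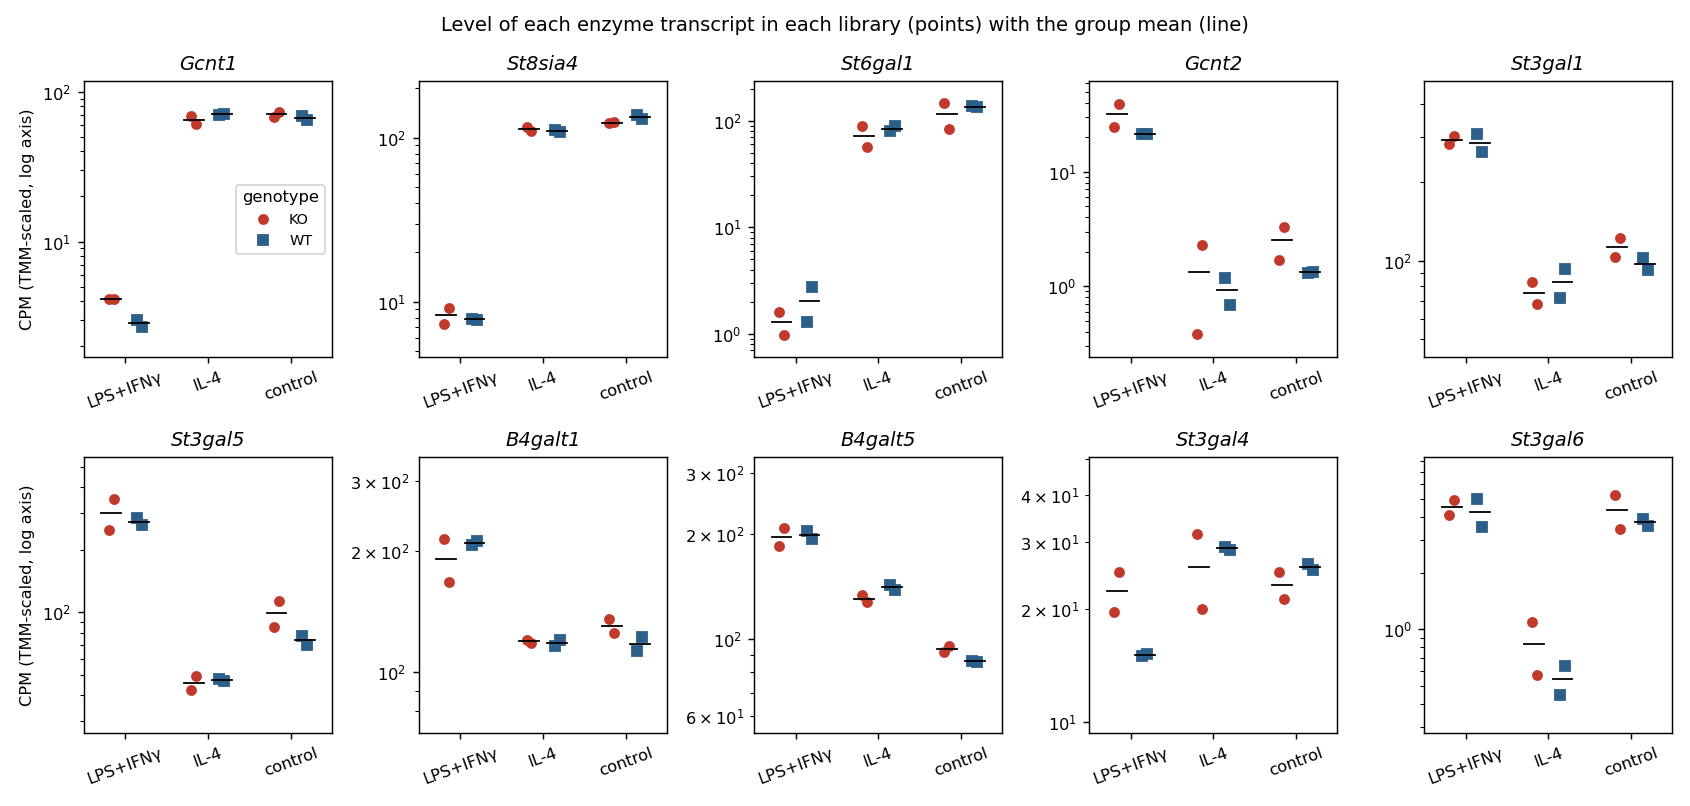
Level of each of the 10 transcripts in each library (points, TMM-scaled CPM on a log axis), with the mean of each group of 2 libraries as a line. Gcnt1, St8sia4 and St6gal1 sit far lower in the LPS+IFNγ libraries than in the others, and Gcnt2, St3gal1 and St3gal5 sit higher there.

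Gcnt1, St8sia4 and St6gal1 were much lower after LPS+IFNγ in macrophages of both genotypes, and after IL-4 their log2 differences from control lay between −0.69 and 0.08. Gcnt1 (ENSMUSG00000038843; chromosome 19, 17326141 to 17372844, GRCm38) encodes the enzyme that starts the core 2 branch of mucin-type O-glycans, on which many selectin ligands are built. It had 4.12 and 4.16 CPM in KO LPS+IFNγ libraries, against 67.9 and 73.6 CPM in KO control libraries. WT LPS+IFNγ libraries had 3.0 and 2.71 CPM, against 68.8 and 64.3 CPM in WT control libraries. The groups did not overlap in either genotype, and the log2 fold change was −4.09 ± 0.12 (SE) in KO and −4.54 ± 0.13 in WT macrophages. Both SE lie below counting error and are too small, since the LPS+IFNγ libraries held only 61 and 43 counts in KO and 44 and 40 in WT. After IL-4, Gcnt1 had 68.8 and 60.5 CPM in KO and 70.0 and 71.1 CPM in WT libraries, differences from control of −0.13 ± 0.10 and 0.08 ± 0.10 on the log2 scale.

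St8sia4 (ENSMUSG00000040710; chromosome 1, 95587682 to 95667571) encodes a polysialyltransferase, which builds polysialic acid on a few carriers such as NCAM1, neuropilin-2 and CCR7. Its level was 7.36 and 9.20 CPM in KO LPS+IFNγ libraries, against 122 and 125 CPM in KO control libraries. WT LPS+IFNγ libraries held 7.83 and 7.79 CPM, against 138 and 131 CPM in WT control libraries. The log2 fold change was −3.91 ± 0.12 in KO and −4.11 ± 0.12 in WT macrophages, with no overlap between the groups. IL-4 libraries had 117 and 110 CPM in KO and 112 and 109 CPM in WT macrophages, each below every control library of its genotype. That difference was −0.12 ± 0.10 in KO and −0.29 ± 0.10 in WT macrophages on the log2 scale.

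St6gal1 (ENSMUSG00000022885; chromosome 16, 23224740 to 23360350) encodes the enzyme that caps N-glycans with the sialic acid linkage read by the Siglec CD22. It had 1.62 and 0.968 CPM in KO LPS+IFNγ libraries, against 147 and 82.9 CPM in KO control libraries. WT LPS+IFNγ libraries had 1.29 and 2.78 CPM, against 136 and 135 CPM in WT control libraries. This was the largest difference of the 10 members, −6.42 ± 0.45 on the log2 scale in KO and −6.05 ± 0.42 in WT macrophages. Without WT LPS+IFNγ library 2, the higher of the pair, the WT value was −6.71. After IL-4 the level was 88.8 and 56.1 CPM in KO and 79.5 and 88.8 CPM in WT libraries, −0.67 ± 0.31 and −0.69 ± 0.31 against control. The KO IL-4 and KO control libraries overlapped, and the WT IL-4 and WT control libraries did not.

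Gcnt2, St3gal1 and St3gal5 were higher after LPS+IFNγ, Gcnt2 from a low level in control. Gcnt2 (ENSMUSG00000021360; chromosome 13, 40859754 to 40960892) encodes the branching enzyme that turns the linear i antigen into the I antigen. It had 24.6 and 38.8 CPM in KO LPS+IFNγ libraries, against 1.7 and 3.31 CPM in KO control libraries. The level was 21.3 and 21.2 CPM in WT LPS+IFNγ libraries, against 1.31 and 1.33 CPM in WT control libraries. The log2 fold change was 3.66 ± 0.56 in KO and 4.0 ± 0.59 in WT macrophages. IL-4 libraries were low and wide apart, with 0.383 and 2.27 CPM in KO and 1.17 and 0.687 CPM in WT macrophages. Against control these were −0.88 ± 0.60 and −0.52 ± 0.68 on the log2 scale.

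St3gal1 (ENSMUSG00000013846; chromosome 15, 67102875 to 67176830) encodes the sialyltransferase that caps core 1 O-glycans, the same acceptor that Gcnt1 branches. Its level was 281 and 302 CPM in KO LPS+IFNγ libraries, against 103 and 123 CPM in KO control libraries. It was 307 and 261 CPM in WT LPS+IFNγ libraries, against 103 and 91.9 CPM in WT control libraries. The groups stood apart, with log2 fold changes of 1.37 ± 0.16 in KO and 1.54 ± 0.16 in WT macrophages. After IL-4 it had 82.6 and 68.2 CPM in KO libraries, below both KO control libraries (−0.58 ± 0.16). WT IL-4 libraries had 72.1 and 93.4 CPM and overlapped with WT control (−0.23 ± 0.16). Per kilobase of merged exons, the St3gal1 level over the Gcnt1 level was 57.3 and 61.0 in KO LPS+IFNγ libraries, against 1.28 and 1.40 in KO control libraries. The same ratio was 86.0 and 81.0 in WT LPS+IFNγ libraries, against 1.26 and 1.20 in WT control libraries. KO IL-4 libraries gave ratios of 1.01 and 0.948, and WT IL-4 libraries gave 0.867 and 1.1.

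St3gal5 (ENSMUSG00000056091; chromosome 6, 72097592 to 72154571) encodes GM3 synthase, the first sialylation step of ganglioside synthesis. It had 248 and 349 CPM in KO LPS+IFNγ libraries, against 85.4 and 114 CPM in KO control libraries, a log2 fold change of 1.58 ± 0.18. In WT LPS+IFNγ libraries it had 282 and 262 CPM, against 76.9 and 69.6 CPM in WT control libraries (1.89 ± 0.19). After IL-4 it was lower than control, at 42.2 and 49.3 CPM in KO and 47.8 and 46.9 CPM in WT libraries. All 4 IL-4 libraries lay below all 4 control libraries, with differences of −1.12 ± 0.18 in KO and −0.63 ± 0.18 in WT macrophages.

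The galactosyltransferases B4galt1 and B4galt5 were modestly higher after LPS+IFNγ, and B4galt5 also after IL-4. B4galt1 (ENSMUSG00000028413; chromosome 4, 40804602 to 40854005) encodes the enzyme that makes most N-acetyllactosamine of N-glycans. It had 215 and 168 CPM in KO LPS+IFNγ libraries, against 135 and 125 CPM in KO control libraries, and 208 and 213 CPM in WT LPS+IFNγ libraries, against 113 and 122 CPM in WT control libraries. The log2 fold changes were 0.56 ± 0.12 and 0.84 ± 0.12, but with total counts alone as the scale they were 0.06 and 0.34. IL-4 libraries had 121 and 118 CPM in KO and 116 and 120 CPM in WT macrophages, −0.12 ± 0.12 and 0.01 ± 0.12 against control. B4galt5 (ENSMUSG00000017929; chromosome 2, 167298444 to 167349183) encodes a lactosylceramide synthase, which makes the lipid that St3gal5 sialylates. It had 184 and 209 CPM in KO LPS+IFNγ, 134 and 127 CPM in KO IL-4 and 91.8 and 95.2 CPM in KO control libraries. WT libraries had 204 and 194 CPM after LPS+IFNγ, 142 and 138 CPM after IL-4 and 86.5 and 85.7 CPM in control. The 3 treatments stood apart in each genotype, with log2 fold changes of 1.07 ± 0.09 in KO and 1.21 ± 0.09 in WT macrophages for LPS+IFNγ, and 0.48 ± 0.09 and 0.71 ± 0.09 for IL-4.

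St3gal4 and St3gal6, which sialylate the N-acetyllactosamine ends that become selectin ligands, differed from the rest. St3gal4 (ENSMUSG00000032038; chromosome 9, 35046576 to 35119268) had 19.6 and 24.97 CPM in KO LPS+IFNγ libraries, against 24.97 and 21.2 CPM in KO control libraries, and these overlapped (−0.05 ± 0.21). It had 15.0 and 15.2 CPM in WT LPS+IFNγ libraries, against 26.3 and 25.4 CPM in WT control libraries (−0.78 ± 0.21). In IL-4 libraries St3gal4 had 31.6 and 20.0 CPM in KO and 29.2 and 28.6 CPM in WT macrophages (0.16 ± 0.20 in each). St3gal6 (ENSMUSG00000022747; chromosome 16, 58468125 to 58524243) lay farthest below control after IL-4, with 1.09 and 0.568 CPM in KO IL-4 libraries, against 5.25 and 3.46 CPM in KO control libraries. WT IL-4 libraries had 0.446 and 0.638 CPM, against 3.89 and 3.60 CPM in WT control libraries. The log2 fold changes were −2.39 ± 0.39 in KO and −2.76 ± 0.41 in WT macrophages. They were −2.06 without KO control library 1, −1.99 without KO IL-4 library 2 and −2.54 without WT IL-4 library 1. After LPS+IFNγ, St3gal6 had 4.12 and 4.94 CPM in KO and 4.97 and 3.52 CPM in WT libraries, overlapping with control (0.05 ± 0.36 and 0.18 ± 0.36).

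**Figure D2:**
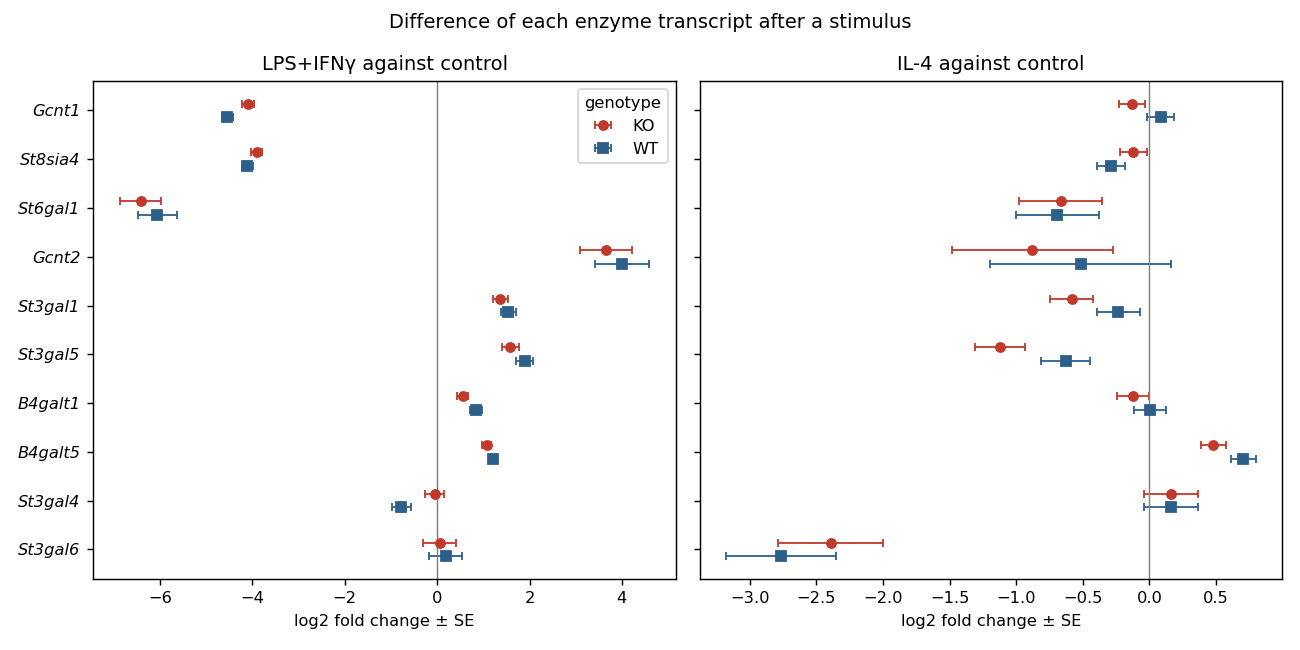
Log2 fold change of each member after LPS+IFNγ (left) and after IL-4 (right) against control, with bars for the SE, in KO and WT macrophages. St6gal1, Gcnt1 and St8sia4 lie between −6.42 and −3.91 after LPS+IFNγ, while after IL-4 the lowest member is St3gal6.

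Over all tested genes, 53.3% passed an adjusted p of 0.05 after LPS+IFNγ in KO macrophages and 54.3% in WT macrophages (edgeR quasi-likelihood test, Benjamini-Hochberg). In KO macrophages 27.2% of all genes passed as higher and 26.1% as lower, and in WT macrophages 27.4% and 27%. Of the 10 members, 8 passed in KO macrophages, 5 higher and 3 lower, and 9 passed in WT macrophages, 5 higher and 4 lower. After IL-4, 6.86% of all genes passed in KO and 9.04% in WT macrophages, beside 3 members in KO (B4galt5 higher, St3gal5 and St3gal6 lower) and 2 in WT (B4galt5 higher, St3gal6 lower). By direction, 3.52% of all genes were higher and 3.34% lower in KO macrophages, and 4.92% and 4.12% in WT macrophages. Since the members were chosen on these levels, nothing is read from these counts. The median log2 fold change of the members was 0.30 in KO and 0.51 in WT macrophages after LPS+IFNγ, beside −0.01 and −0.05 over all genes. It was −0.36 in KO and −0.26 in WT macrophages after IL-4, beside 0.00 and −0.02. TMM factors were 0.756 to 0.833 in LPS+IFNγ libraries and 1.09 to 1.16 in the others. With total counts alone as the scale, the median of all genes after LPS+IFNγ was −0.51 in KO and −0.55 in WT macrophages. The share of called genes that were higher was then 24.8% in KO and 24.9% in WT macrophages, beside 51.0% and 50.4% with TMM. For IL-4 in WT macrophages it was 43.7%, beside 54.4% with TMM.

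Set on a scale per kilobase of merged exons, the levels of the 10 transcripts can be ranked within a group. In LPS+IFNγ libraries St3gal5 led, at 114 CPM per kb in KO and 104 in WT macrophages, and St8sia4 was at 0.412 and 0.389 CPM per kb. In IL-4 libraries B4galt5 led, at 30.3 CPM per kb in KO and 32.6 in WT macrophages. In control libraries St3gal5 stood at 38.1 CPM per kb in KO and 28.0 in WT macrophages, with B4galt1 at 30.8 and 27.8 and St6gal1 at 23.4 and 27.6. Gcnt1 reached 12.3 and 11.6 CPM per kb there, and Gcnt2, at 0.356 and 0.187, was the lowest. These levels rest on all annotated exons of a gene, and the transcripts in use were not determined.

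Across the 6 group means, Gcnt1 and St8sia4 were the nearest of the 45 pairs of members, with a root mean square difference of 0.245 on the log2 scale after each profile was centred. B4galt1 with B4galt5 (0.276) and St3gal1 with St3gal5 (0.310) came next, and Gcnt2 with St6gal1 (4.77) stood farthest apart. Among 13524 other tested genes, the nearest to Gcnt1 were Mcm2, a subunit of the replicative helicase (0.105), Shmt1, the cytosolic serine hydroxymethyltransferase (0.108), Cdca7l (0.134), Smpd3, a neutral sphingomyelinase (0.148), and Gabbr2, a GABA-B receptor subunit (0.167). The nearest to St8sia4 were Npl, the lyase that breaks down free sialic acid (0.0900), Cks1b, a cyclin-dependent kinase partner (0.0943), Cd163, the haemoglobin scavenger receptor (0.148), Sulf2, an extracellular sulfatase (0.155), and Cdc45, a replication factor (0.168). Only 6 points enter each comparison, and they share the same 12 libraries.

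**Figure D3:**
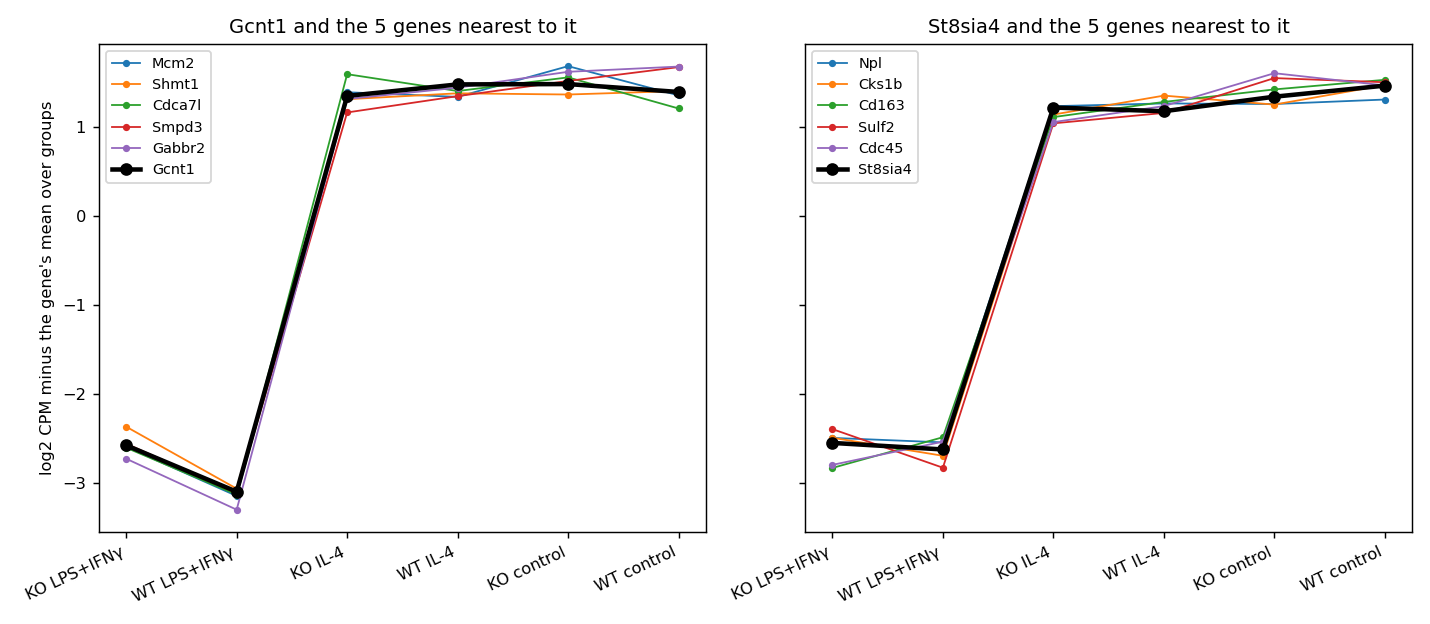
Mean log2 CPM in each of the 6 groups, centred on the mean over groups, for Gcnt1 (left) and St8sia4 (right) with the 5 tested genes whose profiles were nearest. All 12 lines are low in the LPS+IFNγ groups and near level over the IL-4 and control groups.

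KO macrophages were compared with WT within each treatment, for members picked with the levels of both genotypes known. Since Xist and Ddx3y separated the same libraries, each KO against WT value, over all genes too, holds any difference of sex as well. None of the 10 passed the threshold after LPS+IFNγ, after IL-4 or in control macrophages, beside 0.0591%, 0.0665% and 0.0739% of all tested genes, nor over the mean of the 3 treatments, beside 0.17% (edgeR quasi-likelihood test). By DESeq2 the member counts were also 0. At an unadjusted p under 0.05 there were 2 members after LPS+IFNγ, 0 after IL-4, 1 in control macrophages and 1 over the mean, beside 8.27%, 3.35%, 7.48% and 11.3% of all tested genes. The 30 log2 fold changes of KO over WT lay between −0.60 and 0.92, with SE from 0.0933 to 0.675. Their adjusted p-values from edgeR ran from 0.564 to 1.0. A difference within these errors was not detectable with 2 libraries a group. Larger ones were not called either, such as St3gal4 after LPS+IFNγ (0.56 ± 0.21).

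Gcnt1 had the lowest adjusted p of the members within a treatment, after LPS+IFNγ, with 4.12 and 4.16 CPM in KO and 3.0 and 2.71 CPM in WT libraries. Its log2 fold change of KO over WT was 0.54 ± 0.14 (edgeR, adjusted p = 0.564), and after IL-4 and in control macrophages it was −0.13 ± 0.10 and 0.09 ± 0.10. Over the mean of treatments it was 0.17 ± 0.07 (edgeR, adjusted p = 0.417). The LPS+IFNγ SE of Gcnt1, and that of St8sia4 given below, lie below counting error at the few counts of these libraries and are too small. St3gal4 after LPS+IFNγ was 0.56 ± 0.21 (edgeR, adjusted p = 0.582). St3gal5 in control macrophages was 0.44 ± 0.18 (edgeR, adjusted p = 0.666). St8sia4 was 0.07 ± 0.12 after LPS+IFNγ, 0.04 ± 0.10 after IL-4 and −0.13 ± 0.10 in control macrophages. Gcnt2 was 0.57 ± 0.49, 0.56 ± 0.67 and 0.92 ± 0.60 in the same order, and its mean of 0.68 ± 0.34 (edgeR, adjusted p = 0.470) turned to −0.23 when the 3 KO libraries numbered 2 were left out. Those libraries had more Gcnt2 and less St6gal1 than KO libraries numbered 1 under each treatment, and they were the libraries with the highest stromal sums. The part of stromal RNA in these levels was not tested.

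The difference between genotypes in the response to a stimulus was tested as an interaction, and 0 of the 13525 genes (0%) passed in edgeR for either stimulus. At an unadjusted p under 0.05 there were 476 genes (3.52%) for LPS+IFNγ and 604 (4.47%) for IL-4, and DESeq2 called 5 and 4 genes, none of them a member. Among the members, 2 were below that unadjusted level for LPS+IFNγ and 0 for IL-4. The KO minus WT difference in the LPS+IFNγ response was 0.45 ± 0.17 on the log2 scale for Gcnt1 and 0.72 ± 0.29 for St3gal4 (edgeR, adjusted p = 0.991 for each). Here too the SE of Gcnt1 is below counting error. The IL-4 difference of St3gal5 was −0.49 ± 0.26 and that of B4galt5 −0.23 ± 0.13, with adjusted p-values of 1.0 in edgeR.

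**Figure D4:**
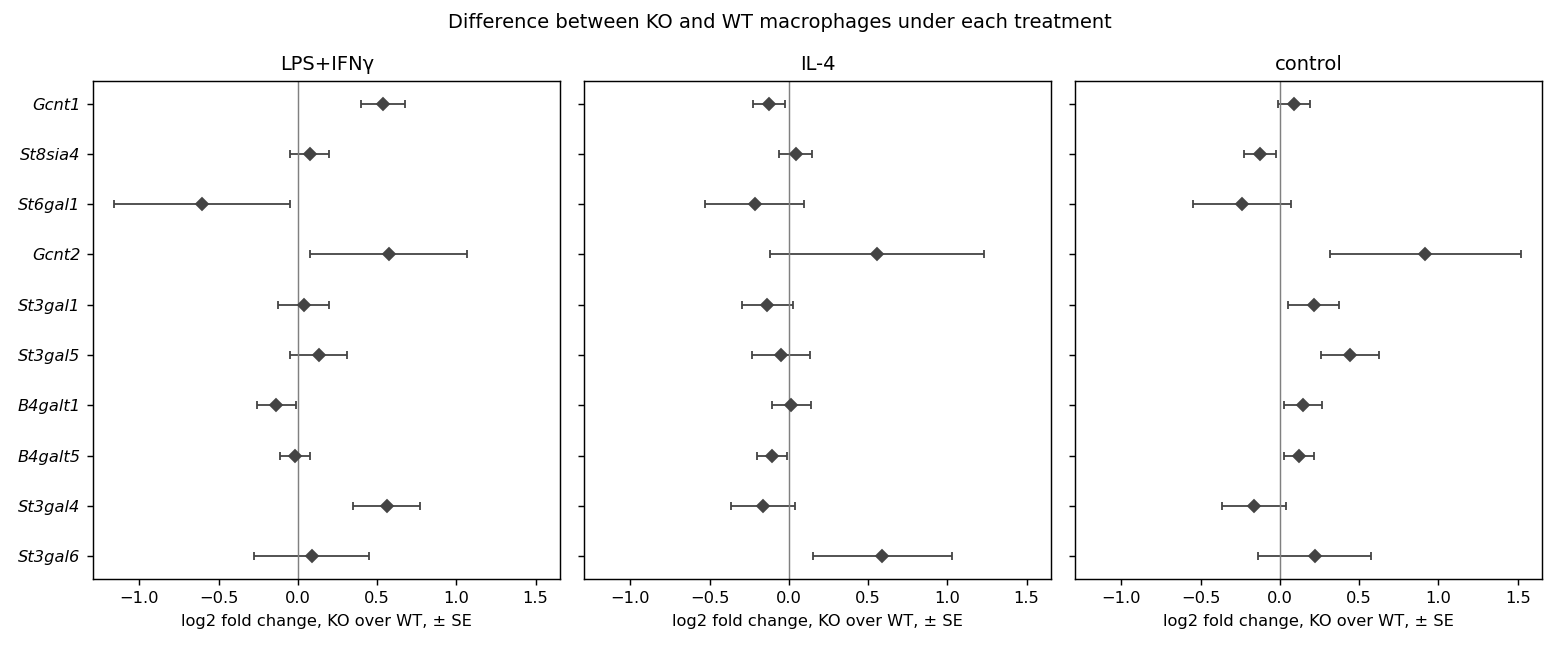
Log2 fold change of KO over WT for each member within LPS+IFNγ, IL-4 and control macrophages, with bars for the SE. Points lie between −0.60 and 0.92, and the widest bars belong to Gcnt2, St6gal1 and St3gal6, whose levels were low in some groups.

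Other genes of the glycosylation pathways were taken from 8 lists with 112 genes, of which 84 were tested. The lists were chosen with earlier results of these data known, so their shares of calls are a description. After LPS+IFNγ, 54 of the 84 passed in KO macrophages, 16 higher and 38 lower (64.3%, beside 53.3% of all genes). In WT macrophages 58 passed, 17 higher and 41 lower (69%, beside 54.3%). Their median log2 fold change was −0.55 in KO and −0.50 in WT macrophages, beside −0.01 and −0.05 over all genes. Counts of higher and lower genes in each list stand beside 27.2% higher and 26.1% lower of all genes in KO macrophages, and 27.4% and 27% in WT macrophages. In all, 12 genes rose in both genotypes and 37 fell in both.

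The 14 remaining sialyltransferases are those left after the members were picked. Among the members, St3gal1 and St3gal5 were higher after LPS+IFNγ, and St6gal1 and St8sia4 were lower. Of the 14, 5 were tested, and 4 fell and 0 rose after LPS+IFNγ in each genotype. That is 80% called, beside 53.3% of all genes in KO and 54.3% in WT macrophages. St3gal2, which acts on gangliosides and O-glycans, had 21.4 and 16.0 CPM in KO LPS+IFNγ libraries, against 41.8 and 41.9 CPM in KO control libraries, and 19.3 and 16.7 CPM in WT LPS+IFNγ libraries, against 46.9 and 43.8 CPM in WT control libraries. St3gal3, which acts on N-acetyllactosamine, had log2 fold changes of −1.32 ± 0.21 in KO and −1.45 ± 0.21 in WT macrophages, both past the threshold, and St6galnac4 fell by 0.96 ± 0.22 and 1.24 ± 0.23. St6galnac6 fell by 0.76 ± 0.27 and 0.90 ± 0.27. The fifth, St8sia1, the GD3 synthase, had 0 counts in KO LPS+IFNγ and KO control libraries, and 0.547 and 0.805 CPM in KO IL-4 libraries. It had 0 and 0.136 CPM in WT LPS+IFNγ, 0.781 and 0.393 CPM in WT IL-4 and 0.0486 and 0 CPM in WT control libraries.

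Of 12 tested genes that supply, activate or remove sialic acid, 9 fell and 2 rose after LPS+IFNγ in KO macrophages (91.7% called, beside 53.3% of all genes), and 9 fell and 0 rose in WT macrophages (75%, beside 54.3%). Npl had 0.540 and 0.387 CPM in KO LPS+IFNγ libraries, against 6.82 and 8.38 CPM in KO control libraries, a log2 fold change of −3.99 ± 0.38. In WT macrophages it was −4.03 ± 0.37 (edgeR, adjusted p = 2.2e-05 in KO and 1.65e-05 in WT macrophages). Cmah, which converts one form of sialic acid into its hydroxylated form, had 3 counts in KO LPS+IFNγ libraries together and 5 in WT LPS+IFNγ libraries, against 92 in KO control and 152 in WT control libraries. Gne, the first enzyme of sialic acid synthesis, fell by 0.64 ± 0.14 and 0.76 ± 0.14, Nans, the sialic acid synthase, by 0.94 ± 0.19 and 1.55 ± 0.19, and Cmas, which activates sialic acid, by 0.72 ± 0.12 and 0.71 ± 0.12 in KO and WT macrophages on the log2 scale. Slc35a1, the transporter of the activated sugar, gave −0.13 ± 0.17 in KO and 0.07 ± 0.17 in WT macrophages. The genes that rose in KO macrophages were the sialidases Neu1 (0.66 ± 0.17) and Neu3 (1.04 ± 0.37). Both values rest on TMM and were not followed with total counts alone, where the median of all genes in KO macrophages was −0.51. In WT macrophages Neu1 was 0.45 ± 0.17 and Neu3 0.82 ± 0.37, short of the threshold.

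The list for the first steps of mucin-type O-glycans held Galnt genes, C1galt1 and C1galt1c1. Of its 14 tested genes, 1 rose and 7 fell after LPS+IFNγ in KO macrophages (57.1% called, beside 53.3% of all genes). In WT macrophages 3 rose and 7 fell (71.4%, beside 54.3%). Galnt6 rose by 1.02 ± 0.15 and 1.12 ± 0.15 on the log2 scale. Galnt12 fell by 1.79 ± 0.30 and 2.34 ± 0.30. Galnt9 had 0 counts in KO LPS+IFNγ libraries and 2 counts in WT LPS+IFNγ libraries, against 93 and 98 counts in the control libraries of each genotype, which makes it at least 7.63-fold lower in KO macrophages against 3 counts in the shallowest library. For N-glycan trimming and branching, 3 were higher and 5 lower of 12 in KO macrophages (66.7%, beside 53.3%), and 5 and 5 in WT macrophages (83.3%, beside 54.3%). Man2a1, a Golgi mannosidase, had 703 and 680 CPM in KO LPS+IFNγ libraries, against 265 and 267 CPM in KO control libraries (1.38 ± 0.09). Its relative Man2a2 had 15.3 and 15.9 CPM, against 127 and 117 CPM (−2.97 ± 0.15). In WT macrophages the pair were 1.58 ± 0.10 and −3.79 ± 0.15. Mgat4a, which adds an N-glycan branch, rose by 1.07 ± 0.17 and 1.54 ± 0.17.

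Of 14 tested genes of poly-N-acetyllactosamine, fucose and sulfate decoration, 7 fell and 2 rose in KO macrophages (64.3% called, beside 53.3% of all genes), and 8 fell and 0 rose in WT macrophages (57.1%, beside 54.3%). Gmds, the first enzyme of GDP-fucose synthesis, fell by 2.69 ± 0.25 and 2.42 ± 0.24, and Fut10 by 3.34 ± 0.41 and 5.35 ± 0.48. B3gnt5, which starts lacto-series glycolipids, fell by 1.99 ± 0.72 in KO macrophages (edgeR, adjusted p = 0.0412). That call was lost when any 1 of the 6 WT libraries (adjusted p = 0.0520 to 0.0591), KO LPS+IFNγ library 1 (0.0630) or 2 (0.177) or KO control library 1 (0.274) was left out. In WT macrophages it fell by 2.80 ± 0.68, and gave −2.51 (adjusted p = 0.0556) without WT LPS+IFNγ library 1. Fut7, which makes the fucosylated selectin ligand sialyl Lewis x, fell by 1.17 ± 0.27 and 1.88 ± 0.28. Among the remaining GCNT and B4GALT enzymes, 5 of 8 were tested, and 0 rose and 1 fell in KO (20%, beside 53.3%) and 1 rose and 2 fell in WT macrophages (60%, beside 54.3%). B4galt4 fell by 3.67 ± 0.41 and 3.70 ± 0.41.

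Of 11 tested glycosphingolipid genes, 4 rose and 4 fell in each genotype (72.7% called, beside 53.3% of all genes in KO and 54.3% in WT macrophages). Gbgt1, the Forssman synthase, rose by 2.65 ± 0.30 in KO and 2.68 ± 0.31 in WT macrophages, and Ugcg, the glucosylceramide synthase, by 0.70 ± 0.12 and 0.82 ± 0.12. With total counts alone as the scale Ugcg was 0.21 and 0.32, and neither passed. B3galt4, which makes GM1, rose by 0.69 ± 0.15 and 0.40 ± 0.15 with TMM, but was 0.19 and −0.09 with total counts alone. The WT call of B3galt4 (edgeR, adjusted p = 0.0421) was also lost in DESeq2 (0.114) and in 9 of 12 fits that left out 1 library, namely each WT library, each KO IL-4 library and KO control library 1 (highest 0.207, without WT control library 1).

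Of 11 tested genes for proteins that carry these glycans, 4 rose and 1 fell in KO macrophages (45.5% called, beside 53.3% of all genes), and 4 rose and 2 fell in WT macrophages (54.5%, beside 54.3%). Nrp2, a polysialylated co-receptor, had 1379 and 1391 CPM in KO LPS+IFNγ libraries, against 440 and 594 CPM in KO control libraries, and rose by 1.42 ± 0.15 in KO and 1.78 ± 0.15 in WT macrophages. Ccr7, the lymph node homing receptor, had 3.78 and 0.774 CPM in KO LPS+IFNγ libraries, against 0.138 and 0 CPM in KO control libraries. WT LPS+IFNγ libraries had 3.68 and 3.59 CPM, against 0.389 and 0.0985 CPM in WT control libraries. The KO difference missed the threshold when KO LPS+IFNγ library 1 (edgeR, adjusted p = 0.114) or KO control library 2 (0.0655) was left out. The WT difference missed it when WT LPS+IFNγ library 1 (0.0572) or 2 (0.0535) or WT control library 2 (0.115) was left out. Lamp2, a lysosomal membrane glycoprotein, rose by 1.18 ± 0.12 and 1.35 ± 0.12. Ptprc, which encodes CD45, rose by 0.69 ± 0.12 and 0.66 ± 0.12 with TMM and was 0.19 and 0.16, not past the threshold, with total counts alone. Spn, the mucin-like CD43, fell, with log2 fold changes of −2.47 ± 0.63 and −3.47 ± 0.62. Its KO value was −1.22 (edgeR, adjusted p = 0.0755) without KO control library 1 and −2.21 (0.0615) without KO LPS+IFNγ library 2.

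**Figure D5:**
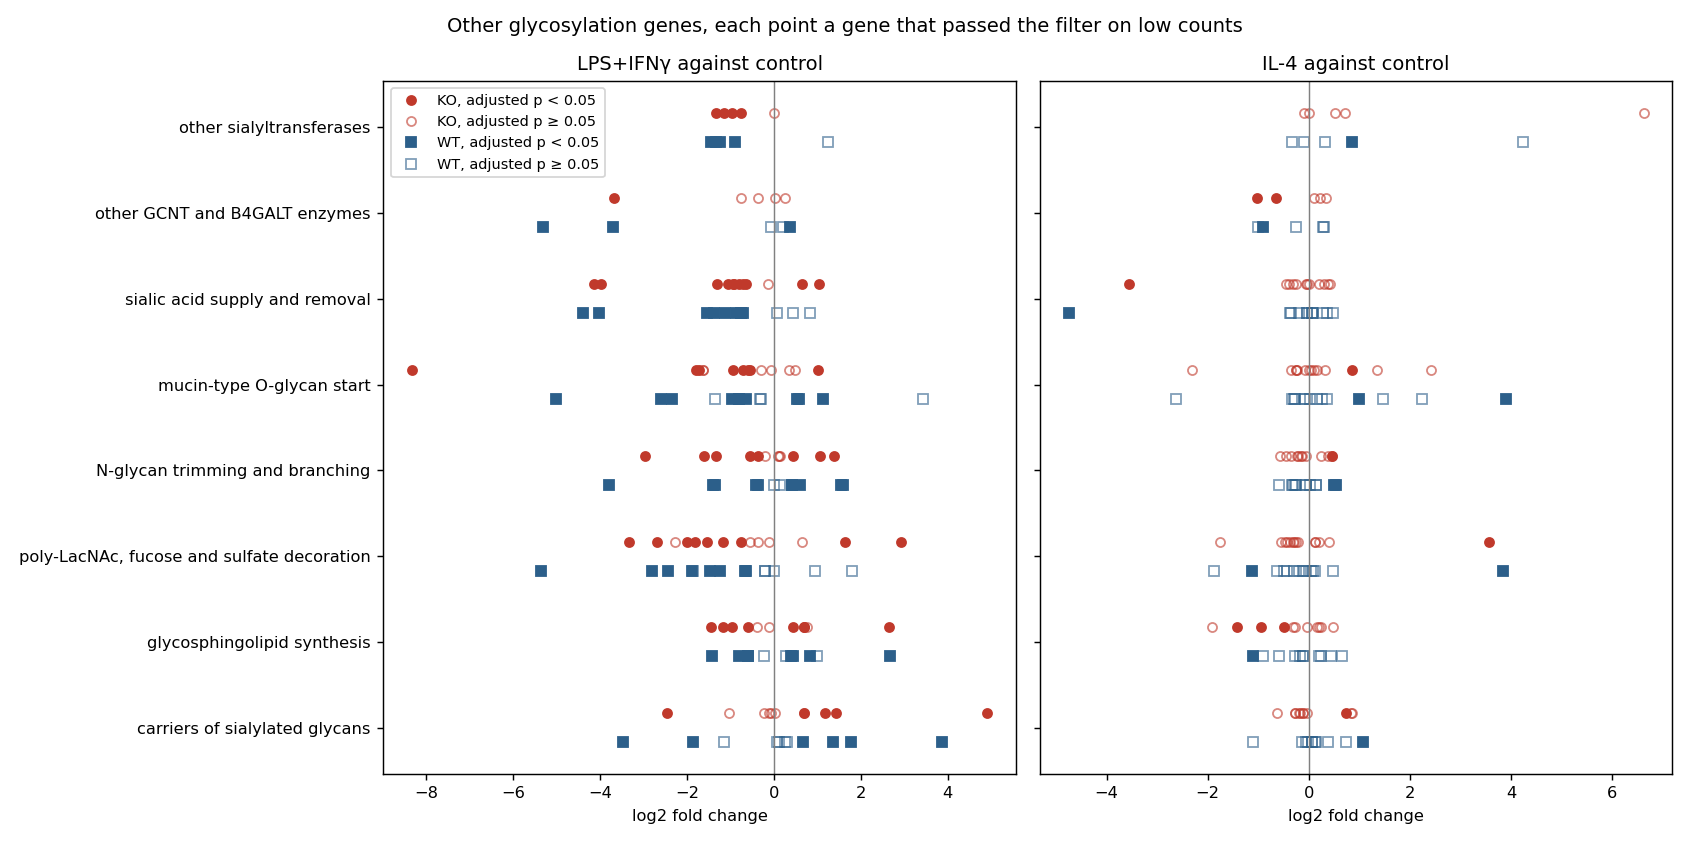
Log2 fold change of each tested gene of the 8 pathway lists after LPS+IFNγ (left) and IL-4 (right), KO above WT in each list, filled where the adjusted p is under 0.05. The members are left out. Filled points are mostly left of 0 for the other sialyltransferases and sialic acid supply after LPS+IFNγ, and few are filled after IL-4.

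After IL-4, 10 of the 84 pathway genes passed in KO macrophages, 4 higher and 6 lower (11.9%, beside 6.86% of all genes). In WT macrophages 11 passed, 7 higher and 4 lower (13.1%, beside 9.04%). In both genotypes 4 rose and 3 fell. B3gnt7, which extends poly-N-acetyllactosamine, had 5.30 and 4.31 CPM in KO IL-4 libraries, against 0.415 and 0.390 CPM in KO control libraries, and 5.36 and 6.04 CPM in WT IL-4 libraries, against 0.437 and 0.345 CPM in WT control libraries. Cd44, the hyaluronan receptor, rose by 0.72 ± 0.11 in KO and 1.06 ± 0.12 in WT macrophages, Galnt6 by 0.84 ± 0.15 and 0.98 ± 0.15, and Mgat1, which opens the way to complex N-glycans, by 0.45 ± 0.08 and 0.49 ± 0.08. Cmah fell, with log2 fold changes of −3.55 ± 0.82 and −4.75 ± 0.86. B4galt6, another lactosylceramide synthase, fell by 1.02 ± 0.15 and 0.90 ± 0.15, and B3galnt1, the globoside synthase, gave −0.94 ± 0.19 and −1.1 ± 0.19, both past the threshold. Many of these IL-4 calls depended on single libraries. Without KO control library 1 or 2 or KO IL-4 library 1 the KO count was 2, 6 or 5, and without any 1 WT control or WT LPS+IFNγ library it was 6. Without KO LPS+IFNγ library 1 or 2 it was 16. Without WT control library 1 or 2 the WT count was 1 or 2, and without WT IL-4 library 1 or 2 it was 3 or 1.

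Between KO and WT macrophages 0 of the 84 pathway genes passed within LPS+IFNγ, IL-4 or control, over their mean, or in either interaction (edgeR). At an unadjusted p under 0.05 there were 8 (9.52%) after LPS+IFNγ, 3 (3.57%) after IL-4, 5 (5.95%) in control macrophages and 8 (9.52%) over the mean, beside 8.27%, 3.35%, 7.48% and 11.3% of all genes. In the interactions there were 5 (5.95%) for LPS+IFNγ and 1 (1.19%) for IL-4, beside 3.52% and 4.47%. DESeq2 called Galnt7 after LPS+IFNγ (−0.70, adjusted p = 0.0301), and over the mean B4galt2 (3.01, adjusted p = 0.0494) and Ncam1 (2.37, adjusted p = 0.0290). Ncam1 had 1.89 and 3.19 CPM in KO LPS+IFNγ, 1.15 and 3.69 CPM in KO IL-4 and 1.20 and 4.73 CPM in KO control libraries. It had 0 and 0.542 CPM in WT LPS+IFNγ, 0.446 and 1.13 CPM in WT IL-4 and 0.292 and 0.936 CPM in WT control libraries. Like the stromal sums, it was higher in library 2 than in library 1 of each group and highest in the KO libraries numbered 2. B4galt2 had 0.322 to 1.04 CPM in KO and 0 to 0.443 CPM in WT libraries. The part of stromal RNA in these levels was not tested. Without KO LPS+IFNγ library 1, edgeR called Gm2a (−0.86, adjusted p = 0.0406), Galnt7 (−0.99, 0.0156) and St6galnac4 (0.84, 0.0423) after LPS+IFNγ. Without KO IL-4 library 1 it called Cd24a over the mean (−1.0, adjusted p = 0.0330).

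Counts of some members may hold reads of another gene, since use of strand in the counting is not given in the sources used here. An exon of St3gal6 overlaps the opposite-strand gene Dcbld2, which had 12.3 to 54.4 CPM, more than St3gal6 in every library. St3gal4 overlaps 4930581F22Rik (0.461 to 1.74 CPM), Gcnt2 overlaps Gm31683 and A730081D07Rik (at most 0.136 CPM), and St6gal1 overlaps BC106179 (at most 1.02 CPM). Gcnt1, St8sia4, St3gal1, B4galt1, St3gal5 and B4galt5 have no exon shared with an opposite-strand gene in the annotation used.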

How the data were processed

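Per the labels' protocols, a NEBNext Ultra II Directional kit was used for RNA-seq. The authors deposited 1 table of estimated counts, whole numbers for 55891 Ensembl genes in 12 libraries. Per the submitters' processing notes, FastQC 0.11.9, Salmon 1.10.2, R 4.4.1, DESeq2 1.45.3 and genome build GRCm39 were used, with no role given. The sources used here do not name the annotation or say whether strand was used. Symbols and positions are those of GRCm38 (GENCODE M21), with 92.0% of identifiers matched, a build other than the authors'.

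From these counts, edgeR 4.0.16 in R 4.3.3 removed low-count genes (filterByExpr), scaled libraries by TMM and fitted all 12 libraries by quasi-likelihood, each group having its own coefficient, with 6 residual degrees of freedom. Tests were two-sided, and p-values were adjusted by Benjamini-Hochberg over 13525 genes, with a threshold of 0.05. SE of log2 fold changes come from the F statistics. Where counts were few, as for Gcnt1 and Npl after LPS+IFNγ, such SE can lie below counting error and are then too small. Libraries of a group differed beyond sampling noise, so none was merged. The chi-square per gene between them, against counting error, was 48.4, 53.8 and 54.9 in KO control, KO LPS+IFNγ and KO IL-4. It was 7.10, 7.81 and 15.6 in WT control, WT LPS+IFNγ and WT IL-4. Each gene's spread was estimated once over all groups, so SE and calls do not reflect this difference between KO and WT. Alternatives were DESeq2 1.42.0, RLE factors, total counts alone, no filter, a replicate block, only the libraries of a contrast, each library left out, and, added after seeing the data, the 3 KO libraries numbered 2 left out. The fit was also run on simulated counts with the same spread in every group, which cannot check it under the unequal spread seen here.

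The members, pathway lists and markers were chosen with earlier results of these data known. Pathway genes named for a stimulus were those past the threshold in the same direction in both genotypes, up to 10 higher and 10 lower by mean log2 fold change, and for KO against WT any that passed. St3gal2, St3gal3, St6galnac4, St6galnac6, St8sia1, Gne, Nans, Cmas, Slc35a1, Neu1, Neu3 and Fut7 were named for their roles, with their values seen. The 5 nearest profiles were taken by root mean square difference. Limits and floors cover counting error only.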

Additional observations from a re-analysis of the deposited data

How the results depend on the processing

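With 2 libraries a group, counts of calls after IL-4 and between genotypes depended on the fit, and those after LPS+IFNγ did so less. Genes called after LPS+IFNγ were 7203 in KO and 7348 in WT macrophages, and 5191 and 8680 with the libraries of the contrast alone. Pathway genes were 54 and 58, and 40 and 64 with the contrast alone. That fit called 7 members in KO and 9 in WT macrophages. Members called after LPS+IFNγ were 8 in KO and 8 to 9 in WT macrophages with any 1 library left out, and members called between genotypes or in an interaction were 0 under every alternative run. Of 1934 values of named genes under 19 alternatives, 1801 were unchanged and 83 fell short of the threshold. Another 48, all of members after a stimulus, moved by more than the spread between libraries, and 2 reversed. For members after a stimulus, unchanged means a move smaller than that spread, whichever side of the threshold the value lay. For all other values it means the same direction and side of the threshold. The reversed values were Gcnt2 in KO over WT as the mean of treatments, −0.23 without the KO libraries numbered 2, and B3galt4 after LPS+IFNγ in WT macrophages, −0.094 with total counts alone. The cause of these changes was not tested.

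Genes called after IL-4 in KO macrophages were 928, and 1640 in DESeq2, 1620 with no filter, 8 with the libraries of the contrast alone and 1816 without the KO libraries numbered 2. That last fit leaves 1 library in each KO group, assumed to vary like those of the WT groups. In WT macrophages they were 1222, and 1841 in DESeq2, 3475 with the contrast alone and 3545 without those KO libraries. Members called after IL-4 were 3 in KO (5 with no filter, 0 with the contrast alone) and 2 in WT macrophages (4 with total counts, 4 with no filter, 5 with the contrast alone, 5 without the KO libraries numbered 2). Pathway genes called after IL-4 were 10 in KO (DESeq2 16, contrast alone 0, without those KO libraries 20) and 11 in WT macrophages (contrast alone 26, without those KO libraries 28).

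Genes called in KO over WT after LPS+IFNγ were 8, and 35 in DESeq2 and 81 with no filter. After IL-4 they were 9 (18, 33, and 5 with the contrast alone), in control 10 (66, 107, 4, and 146 without the KO libraries numbered 2), and over the mean 23 (95 and 312). Interaction calls were 0 for LPS+IFNγ (DESeq2 5, no filter 8, without those KO libraries 54) and 0 for IL-4 (4, 23 and 26). Pathway genes called in KO over WT were 0 after LPS+IFNγ (1 in DESeq2, 1 with no filter) and 0 over the mean (2 and 2).

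Library numbers were not established to pair the samples: deviations of same-numbered libraries correlated at 0.0464 to 0.337 over 15 pairs of groups, above 0.1 in 14. With the replicate block, genes called in KO over WT were 21 after LPS+IFNγ, 36 after IL-4, 27 in control and 173 over the mean, with 2 pathway genes over the mean, B4galt2 (3.32, edgeR adjusted p = 0.0453) and Ncam1 (2.42, 0.0114).

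With 1 library left out, the other library of its group was assumed to vary like the other groups. Genes called after LPS+IFNγ ran from 5987 to 7378 in KO and 5669 to 7658 in WT macrophages, and after IL-4 from 303 to 1218 and 175 to 1637. Members called after IL-4 ran from 1 to 3 in KO and 1 to 4 in WT macrophages, and pathway genes from 2 to 16 and 1 to 14. In KO over WT, genes called ran from 7 to 504 after LPS+IFNγ, 8 to 20 after IL-4, 8 to 49 in control and 15 to 130 over the mean, with pathway genes from 0 to 3 after LPS+IFNγ and 0 to 1 over the mean. Interaction calls ran from 0 to 27 for LPS+IFNγ and 0 to 12 for IL-4. The highest of these genotype counts came without KO LPS+IFNγ library 1 (504, 130 and 27), KO IL-4 library 1 (20) or KO control library 2 (49 and 12).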
